A study of Drosophila melanogaster with 3 samples.

Results

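Distal intergenic peaks are the places where chromatin immunoprecipitation from embryos with tagged Dad recovered DNA between genes, away from any promoter. A peak was counted among them when its summit lay in no annotated transcript and more than 500 bp from the nearest transcription start site (TSS) of any gene, pseudogenes and transposable elements left aside. Of the 3392 peaks in the authors' optimal list, 342 met this rule (10.1%, Wilson 95% interval 9.11 to 11.1). Within the optimal list the rule uses position alone, and no signal value, replicate or base chose the members. The list itself was made by the authors for agreement between replicates, so signal and support are not free of it in any class of peak, and sequence differs between locations. Of the other peaks, 2075 had their summit within 500 bp of a TSS and are called promoter peaks, and 975 lay inside a transcript but farther than that from a TSS and are called gene body peaks.

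The material was whole Drosophila melanogaster embryos of mixed sex, 0 to 24 h old, from the strain Dad-GFP, a transgenic line in which GFP is joined to the C terminus of Dad. Chromatin immunoprecipitation was followed by sequencing of sonicated fragments of 200 to 800 bp. The sample descriptions name an antibody to GFP, while the antibody field of the labels reads Dad, and an antibody to Dad itself would also recover the untagged protein. There were 3 biological replicates in 1 group, without an untagged or treated group among the samples, so the replicates supply the error and no contrast between conditions exists. All tissues and a full day of development were mixed, so a peak held in few cells and a weak peak held in many cannot be told apart. The labels do not say how strongly or where the fusion protein was made, and the input control that the peak caller used is not analysed here. The files hold regions and the caller's signal value, no read counts, and depth is therefore unknown.

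Dad, short for Daughters against dpp, belongs to the inhibitory Smads. It binds activated receptors of the BMP ligand Dpp and limits phosphorylation of the receptor-activated Smad, Mad. Its own gene is switched on by Dpp signalling. DNA between genes in the fly holds enhancers, silencers of the Polycomb system and insulators, which are sequences bound by proteins such as CTCF and Su(Hw) that partition the chromosome. Smad complexes recognise short GC-rich words, and the repressor Brinker, which Dpp signalling turns off, binds a related one.

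The strongest peaks had none of the searched motifs in common. The 201 bases centred on the summit are shown for the 4 strongest distal intergenic peaks whose sequence can be given, each named by the protein-coding gene with the nearest TSS. They were read on the plus strand from the RefSeq sequence of the fly genome (build dm6), and capitals mark each match to the 32 motifs searched. The tara and CG17896 peaks held none of these motifs, the sp3 peak held the Brinker word, TGGCGCC, on both strands, and the CG3149 peak held the Mad word, GCCGNCG, on the plus strand.
tara, chr3R:16222403-16222603: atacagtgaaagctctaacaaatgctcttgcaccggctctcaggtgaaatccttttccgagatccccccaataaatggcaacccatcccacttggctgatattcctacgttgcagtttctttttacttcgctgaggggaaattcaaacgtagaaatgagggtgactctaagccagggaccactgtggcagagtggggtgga
sp3, chr3R:21520280-21520480: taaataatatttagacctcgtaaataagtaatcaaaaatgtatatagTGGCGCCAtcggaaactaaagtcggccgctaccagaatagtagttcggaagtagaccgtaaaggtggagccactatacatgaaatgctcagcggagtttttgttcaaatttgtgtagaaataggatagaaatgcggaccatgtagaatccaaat
CG17896, chrX:493909-494109: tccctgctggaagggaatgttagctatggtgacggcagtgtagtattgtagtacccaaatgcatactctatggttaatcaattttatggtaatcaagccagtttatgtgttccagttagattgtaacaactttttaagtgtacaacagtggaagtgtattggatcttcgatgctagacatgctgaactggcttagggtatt
CG3149, chrX:5696415-5696615: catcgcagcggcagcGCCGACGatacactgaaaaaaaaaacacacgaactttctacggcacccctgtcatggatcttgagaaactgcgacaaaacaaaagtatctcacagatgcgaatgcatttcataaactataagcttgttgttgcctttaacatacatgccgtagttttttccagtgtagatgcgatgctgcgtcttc

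A CTCF word had the highest odds ratio of the searched motifs against pooled regions of the same location, and 6 of the peaks with the word near their summit are shown because the comparison of motifs turns on it. The lines give 81 bases centred on the summit, on the plus strand of dm6, with every match to AGNNGGCGC or its reverse complement in capitals. The soti peak held 3 copies and the Sid peak 2. The centre of the nearest copy lay within 20 bp of the summit in the jp, noc, soti, Sid, wgn and Fancm peaks, at 18, 12, 2, 7, 10 and 9 bp.
jp, chr2L:9567466-9567546: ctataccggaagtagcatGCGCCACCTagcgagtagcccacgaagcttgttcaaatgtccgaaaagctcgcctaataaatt
noc, chr2L:14502767-14502847: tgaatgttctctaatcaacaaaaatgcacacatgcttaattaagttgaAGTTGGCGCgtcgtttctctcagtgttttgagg
soti, chr3R:14391376-14391456: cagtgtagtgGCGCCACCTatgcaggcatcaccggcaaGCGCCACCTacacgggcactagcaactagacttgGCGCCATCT
Sid, chr3R:28672367-28672447: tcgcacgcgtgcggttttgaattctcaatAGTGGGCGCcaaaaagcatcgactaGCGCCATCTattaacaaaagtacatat
wgn, chrX:18635408-18635488: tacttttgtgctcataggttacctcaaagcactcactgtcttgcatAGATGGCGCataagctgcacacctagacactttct
Fancm, chr3R:21487936-21488016: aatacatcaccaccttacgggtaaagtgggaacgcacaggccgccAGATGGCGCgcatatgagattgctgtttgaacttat

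Among words picked because they were more frequent at these peaks than at pooled regions of the same location were AGTGTA and CTGAGAGAAA. The first has 6 bases and the second 10, and the second does not contain the first. The 201 bases around the summit are shown for the 4 strongest peaks that held CTGAGAGAAA and whose sequence can be given, with both words in capitals on either strand. In the CG43401 and Ids peaks the 2 words overlapped in the single run TACACTGAGAGAAA or its reverse complement, while the noc and Rca1 peaks held only CTGAGAGAAA. The noc peak is the one shown above for CTCF.
CG43401, chr2L:1433797-1433997: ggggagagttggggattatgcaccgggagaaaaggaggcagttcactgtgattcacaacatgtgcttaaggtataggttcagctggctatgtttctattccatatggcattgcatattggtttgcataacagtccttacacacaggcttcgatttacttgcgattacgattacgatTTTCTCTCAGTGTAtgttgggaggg
Ids, chr3L:3382517-3382717: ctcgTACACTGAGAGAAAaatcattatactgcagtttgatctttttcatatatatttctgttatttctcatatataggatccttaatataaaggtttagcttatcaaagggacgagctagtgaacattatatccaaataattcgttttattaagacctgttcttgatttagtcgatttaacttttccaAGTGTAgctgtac
noc, chr2L:14502707-14502907: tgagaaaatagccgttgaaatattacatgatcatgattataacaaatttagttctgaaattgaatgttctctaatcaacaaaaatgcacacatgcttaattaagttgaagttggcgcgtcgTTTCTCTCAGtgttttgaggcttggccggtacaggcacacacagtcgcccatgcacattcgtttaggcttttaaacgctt
Rca1, chr2L:6841482-6841682: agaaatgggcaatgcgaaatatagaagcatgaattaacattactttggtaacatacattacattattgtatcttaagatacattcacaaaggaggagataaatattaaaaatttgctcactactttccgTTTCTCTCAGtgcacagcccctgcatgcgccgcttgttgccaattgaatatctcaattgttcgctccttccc

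Taken over all distances from a TSS, distal intergenic sequence carried fewer peaks per Mb than promoter windows or gene bodies. Up to 2000 bp from a TSS its density was above that of gene bodies, as given below. The classes were not matched for distance from a TSS or for transposable elements. Bases that met the location rule made up 36.7 Mb, or 27.4% of the 133.9 Mb of the 6 chromosome arms, and carried 9.31 peaks per Mb (95% exact Poisson interval 8.35 to 10.4). Promoter windows carried 115.7 per Mb (110.7 to 120.8) and gene bodies 12.3 (11.6 to 13.1). The same number of regions of highest signal in each replicate, 3392, gave 8.74 (replicate 1), 8.82 (replicate 2) and 9.77 (replicate 3) distal intergenic regions per Mb, or 9.11 ± 0.575 as mean and SD (n = 3). The corresponding gene body mean was 12.5 ± 0.220, and every replicate's gene body value lay above every distal value. As a share of each replicate's strongest regions, distal intergenic ones were 9.46%, 9.55% and 10.6%. Intervals given here and below cover counting error only.

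Density fell with distance from the nearest TSS. It was 27.1 peaks per Mb between 500 and 1000 bp (76 peaks, 21.3 to 33.9), 17.4 between 1000 and 2000 bp (79 peaks), 11.2 between 2000 and 5000 bp (100 peaks), 7.72 between 5000 and 10000 bp (55 peaks) and 2.39 beyond (32 peaks, 1.64 to 3.38). The median distance was 2225 bp, with quartiles of 1143 and 5057 bp. Within 100 bp inside the limit lay 29 of the peaks, with a median signal of 129.1. Within 100 bp outside it lay 26 intergenic peaks, with a median signal of 104.6. Signal did not follow the density: its median was 125.5, 126.7, 109.4, 108.6 and 128.1 over the same 5 ranges.

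**Figure D1:**
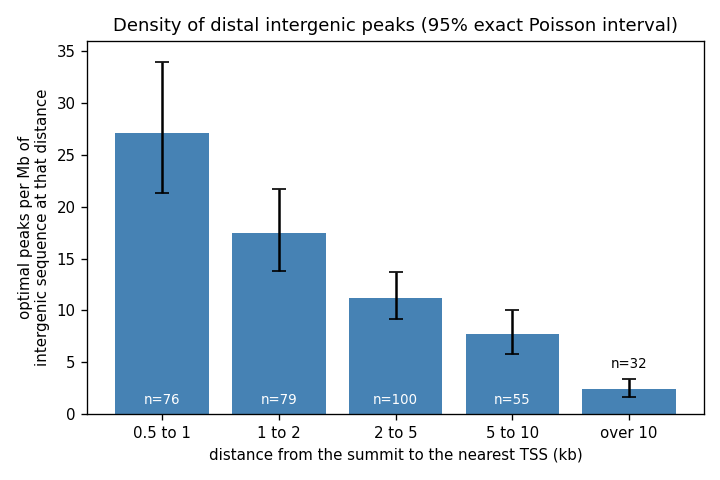
Density of distal intergenic peaks by distance of the summit from the nearest TSS, as peaks per Mb of intergenic sequence at that distance; bars show the density, lines its 95% exact Poisson interval, and n the number of peaks. Density falls from 27.1 per Mb at 0.5 to 1 kb to 2.39 per Mb beyond 10 kb.

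The peaks farthest from any TSS lay in long gaps on arm 3L. The farthest was 37748 bp from the TSS of bab2, between bab1 and bab2, neighbouring genes for BTB-domain transcription factors that pattern limbs and abdomen (signal 104.2, relative signals of 1.10, 0.545 and 0.804 in replicates 1, 2 and 3). A relative signal is the region's signal divided by that replicate's median over all optimal peaks. Though far from any TSS, the bab2 summit lay 901 bp from the 3′ end of a flanking gene, in a gap of 39339 bp. Next came a pair of peaks in the gap of 75047 bp between NijA and CG43245. These lay 36657 and 31886 bp from the TSS of CG43245, with signals of 156.9 and 253.3. The first had relative signals of 1.14, 1.39 and 1.10 and the second of 1.62, 1.93 and 2.29. Both of these were above the median in each replicate, while the bab2 peak was above it in replicate 1 alone.

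Arms differed in density. It was 12.7 per Mb on 2L (10.2 to 15.7), 9.75 on 3L (7.83 to 12.0), 8.56 on X (6.26 to 11.4), 7.79 on 3R (5.94 to 10.02) and 7.48 on 2R (5.65 to 9.71). The mean over the replicates' strongest regions was 12.2 ± 1.20 on 2L (SD, n = 3) and 8.13 ± 0.150 on 3R, and all 3 values of 2L exceeded all 3 of 3R. On X the mean was 6.70 ± 0.644, with each replicate below 8.56, and on 2R 6.94 ± 0.93, so the order of X, 3R and 2R did not hold. The strongest regions of all 3 replicates overlapped 15 of the 46 peaks on X (32.6%), against 51.5% of all distal intergenic peaks. The peaks on X also had the lowest median signal of the arms, 99.5 against 117.9 over all 342, and support fell with signal, as given below. Support of the other optimal peaks on X is not given here, and whether the lower share goes beyond the lower signal was not tested. Arm 2L also had more pooled regions of any strength under the location rule, 124.7 per Mb against 80.7 on X and 81.4 on 2R, while 3L had 127.4. Chromosome 4 held 5 of the peaks, too few to place it (18.5 per Mb, 6.02 to 43.3).

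The distal intergenic peaks were found in gaps of each orientation between genes. Between genes transcribed towards each other there were 84, between genes in the same direction 168, and between genes transcribed away from each other 90. Per Mb of eligible sequence these were 8.87 (7.07 to 11.0), 9.08 (7.76 to 10.6) and 12.3 (9.91 to 15.2), and the intervals overlap. The 1.465 Mb of eligible sequence at the ends of arms, beyond the last gene, held 0 (up to 2.52 per Mb). This was 3.99% of eligible sequence, and it also held just 1 of the 3561 pooled regions outside the optimal list (0.0281%). Hardly any region of any strength was called there, so the 0 is not particular to these peaks. The peaks were spread over 280 gaps, of which 237 held 1 peak and 12 held 3 or more. The 3′ end of a gene lay within 500 bp of the summit in 63 cases (18.4%). For 110 peaks (32.2%) the nearest TSS belonged to a noncoding gene, in 95 cases a long noncoding RNA and in 8 a tRNA. Shares over the background regions or over eligible sequence are not given for gene ends or noncoding genes. These counts therefore describe where the peaks lay and do not show a trait particular to them.

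Some gaps held a series of peaks. The gap upstream of chinmo, which encodes a BTB zinc finger factor of temporal identity in neurons, held 5 within 20910 bp on 2L, with signals of 110.0 to 363.5. The strongest of them had relative signals of 2.27, 2.51 and 3.51, and 4 of the 5 were supported by all 3 replicates. The gap between hng3 and CG13898 on 3L also held 5, with signals of 94.2 to 270.2, and that between NijA and CG43245 held 5 with signals of 84.8 to 253.3; in each of these 2 of the 5 had full support. The gap between Doc2 and Doc1, neighbouring T-box genes of the dorsal ectoderm and amnioserosa, held 3, all with full support. In all, 142 of the 342 peaks (41.5%, 36.4 to 46.8) had another optimal peak within 5 kb, against 45.5% of promoter peaks (43.4 to 47.7) and 52.3% of gene body peaks (49.2 to 55.4). The nearest other peak was itself distal intergenic for 136, a promoter peak for 161 and a gene body peak for 45. Some neighbours lay closer than the width of a region. The pair at scyl, regions of 410 bp with summits 207 bp apart, had the same relative signals, 1.42, 1.44 and 1.63. In each replicate a peak took the value of the strongest region that overlapped it, and both scyl peaks were matched to the same region. A weak peak beside a strong one can therefore carry its neighbour's value. Such neighbours were counted as separate peaks in all shares and intervals, and whether they are parts of 1 enriched site was not tested.

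Transposable elements held almost none of these peaks. Annotated elements cover 10.8% of the bases under the location rule, and 1 of the 342 summits lay in one (0.292%, 0.0516 to 1.64). Of the pooled regions under the same rule that overlapped no optimal peak, 30 of 3561 did (0.842%). How the authors treated reads that match several places is not given in the sources used here, and its part in these low shares was not tested.

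The caller's pooled list holds 30000 regions, strong and weak, of which 13.8% overlapped an optimal peak. Among the 3953 pooled regions under the location rule, 392 did (9.92%, 9.02 to 10.9), below that background. The share was 25.8% for promoter regions (24.9 to 26.6) and 7.28% for gene body regions (6.89 to 7.70). The odds ratio of distal intergenic against gene body regions was 1.40 (Woolf 95% interval 1.24 to 1.58), and against promoter regions 0.317 (0.283 to 0.355). The yield also fell with distance, from 14.4% at 500 to 1000 bp to 7.95% beyond 10000 bp.

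The signal of these peaks was slightly below that of promoter peaks. On the optimal list it ran from 81.1 to 889.9 with a median of 117.9 (quartiles 95.3 and 163.6), against a median of 122.9 for promoter peaks. The median relative signal was 0.929, 0.963 and 0.946 in replicates 1, 2 and 3, against 1.04, 1.01 and 1.02 for promoter peaks. All 3 replicates had the lower value at distal intergenic peaks, with a mean difference of -0.0758 ± 0.0307 (SD, n = 3; exact sign permutation test, two-sided, p = 0.25, the smallest that 3 replicates allow). Gene body peaks had 0.952, 0.984 and 0.987, a smaller mean difference of -0.0286 ± 0.0110 (SD, n = 3; exact sign permutation test, two-sided, p = 0.25). Signals of 300 or more were found in 20 distal intergenic peaks (5.85%), 186 promoter peaks (8.96%) and 70 gene body peaks (7.18%). Over all optimal peaks the share was 8.14%. The coefficient of variation between replicates had a median of 23.6% at distal intergenic and 23.4% at promoter peaks.

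Replicate support was counted as overlap by the 3392 strongest regions of a replicate. Over all optimal peaks, 57.0% were overlapped in all 3 replicates. Of the distal intergenic peaks, 176 were (51.5%, 46.2 to 56.7), 102 were overlapped in 2, 63 in 1 and 1 in none. Against promoter peaks (58.4%) the difference was -6.95 percentage points (Newcombe 95% interval -12.6 to -1.28), and against gene body peaks (55.9%) it was -4.43 points (-10.6 to 1.68), which includes 0. Against all other optimal peaks the difference was -6.14 points (-11.7 to -0.606). That last difference was -4.99 (-10.3 to 0.569) with a reciprocal overlap of 50%, -4.31 (-9.81 to 0.959) without replicate 1, and 0.235 (-1.31 to 0.810) with all regions of each replicate. Support depended on signal: 98.7% of distal intergenic peaks among the strongest 848 of the optimal list had it, 88.1% in the next 848, 29.4% in the 848 after these and 0 of 90 in the weakest 848, where the Wilson interval allows up to 4.09%. Promoter peaks had 99.1%, 84.4%, 37.4% and 9.33%. Among the weakest 848 the intervals of distal intergenic and promoter peaks do not overlap, while in the other sets they do. Gene body peaks had 100%, 86.2%, 36.7% and 5.12%. Their interval among the weakest 848 (3.015 to 8.56) overlaps that of distal intergenic peaks, so the 0 of 90 does not set these apart from gene body peaks. Over all optimal peaks the shares were 99.3%, 85.3%, 36.3% and 7.08%. The optimal list was itself made for agreement between replicates, so these shares describe it and are no independent test of the peaks.

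**Figure D2:**
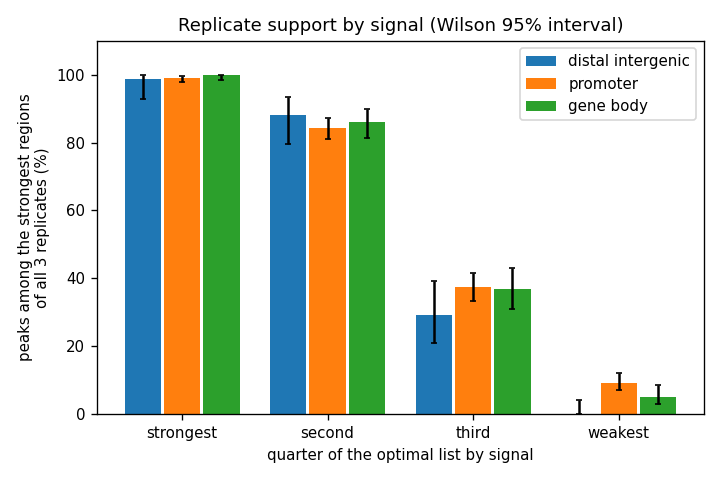
Share of optimal peaks overlapped by the strongest regions of all 3 replicates, in 4 equal sets of the optimal list ranked by signal (848 peaks each) and by location class; lines are Wilson 95% intervals. Support falls from 98.7% to 0% at distal intergenic peaks, from 99.1% to 9.33% at promoter peaks and from 100% to 5.12% at gene body peaks.

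The strongest distal intergenic peak lay between mtSSB and tara on 3R (16222337 to 16222656), with a signal of 889.9 and rank 15 among all optimal peaks. Taranis is a transcriptional co-regulator that interacts genetically with trithorax and Polycomb genes. The summit was 3148 bp from the TSS of tara and 892 bp from that of the noncoding gene lncRNA:CR45643. Its relative signals were 7.65, 6.71 and 6.40 (mean 6.92 ± 0.649, SD, n = 3). A second peak lay 1996 bp away between the same coding genes, on the other side of lncRNA:CR45643 (16224357 to 16224654, signal 393.8). It had relative signals of 2.51, 3.08 and 3.60. The first was the higher of the 2 in each replicate, and both were far above the median peak.

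A pair of strong peaks flanked genes of the Polycomb group on 2R. The peak between Su(z)2 and CG13323 (13035171 to 13035499) had a signal of 841.4, relative signals of 6.58, 6.31 and 6.58, and lay 11978 bp from the nearest TSS in a gap of 36783 bp. The peak between CG13321 and Psc (12958248 to 12958357) had a signal of 372.1 and relative signals of 2.02, 2.81 and 3.81. Su(z)2 and Psc encode related RING finger proteins of Polycomb repressive complex 1. The first peak varied least between replicates among the 5 strongest (SD 0.154), and the second spanned a wide range (SD 0.895), highest in replicate 3.

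The next 3 lay near genes of unlike function. The peak between blw and CycB on 2R (22802814 to 22803141, signal 620.4) was 3372 bp from the TSS of CycB, which encodes the mitotic cyclin B. It had relative signals of 3.98, 4.35 and 5.95, and it was the strongest peak with a CTCF word. The peak at sp3 on 3R (21520236 to 21520501, signal 522.5) lay 548 bp from the TSS, in the gap that also flanks C15, a homeobox gene of the amnioserosa that responds to Dpp. Its relative signals were 4.92, 4.76 and 2.84, lowest in replicate 3. The peak at CG17896 on X (493862 to 494129, signal 513.2) had relative signals of 3.91, 4.29 and 3.89.

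The remaining 13 of the 20 strongest had signals of 320.6 to 470.3. Patterning and developmental genes beside them were slp1 and slp2, a pair of forkhead genes of segmentation (394.4, between them, 4291 bp from the TSS of slp2), chinmo (363.5 and 337.1) and abd-A, a Hox gene that flanks the peak nearest to Glut3 (344.8). Signalling and adhesion were represented by RasGAP1 (467.3), a negative regulator of Ras, and stck (320.6), the PINCH protein of integrin junctions. The peak at jp, the junctophilin gene, had a signal of 376.0 and a CTCF word. The others were nearest to CG3149, with AdamTS-B on the other side (470.3), CG31668, with COX7AL2 (426.6), CG43131, with RabGGTa (397.5), CG13896, with hng3 (362.2), CG7560, with CG44362 (347.8), and DNAlig3, between Sol1 and Cyp9f2 (340.3). All 20 were supported by all 3 replicates, and each had a relative signal above 2 in every replicate.

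**Figure D3:**
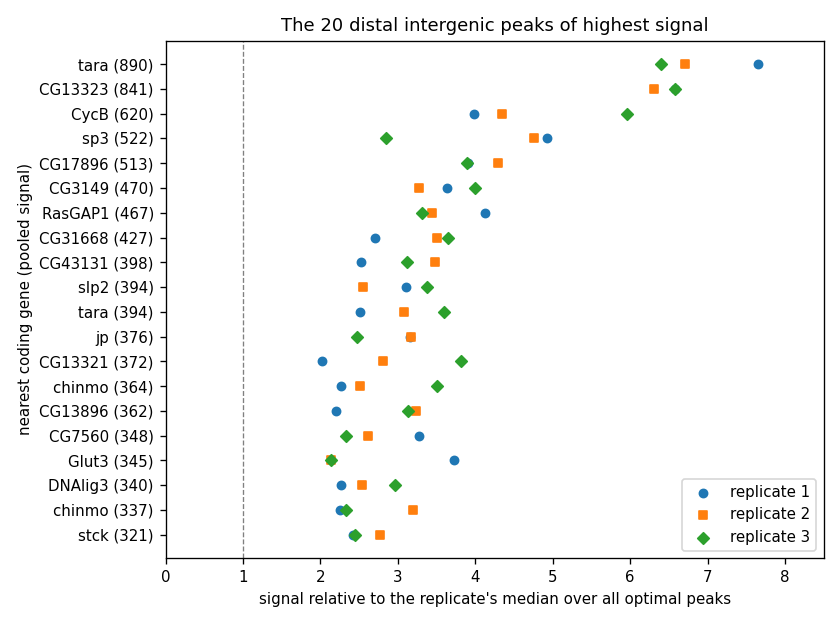
Relative signal (region signal divided by the replicate's median over all optimal peaks) in each of 3 replicates for the 20 distal intergenic peaks of highest signal, named by the nearest protein-coding TSS, with the pooled signal in brackets; the dashed line marks the median peak. All points lie above 2, the strongest tara peak between 6.40 and 7.65 and the sp3 peak with its replicate 3 value lowest.

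The BMP pathway was represented by weak peaks. Over all protein-coding genes, 2.01% (280 of 13945) had the TSS nearest to at least 1 distal intergenic peak, and in the BMP pathway list 2 of 24 did (8.33%). The median signal was 86.2 at the list's peaks and 117.9 over all 342. The peak at dpp, the ligand gene (2L, 2426453 to 2426862), had a signal of 91.1 and relative signals of 0.866, 1.01 and 0.365. The peak at Dad itself lay 1029 bp from its TSS (3R, 17052773 to 17053182), with a signal of 81.4 and relative signals of 0.533, 0.478 and 0.796. Both were near the weak end of the list, at ranks 2789 and 3353 of 3392, the first supported by 2 replicates and the second by 1. Dad is the tagged gene, and the part of extra copies of its locus in the peak there was not tested.

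Of 32 Dpp target genes, 6 were nearest to a distal intergenic peak (18.8%), with 8 peaks in all and a median signal of 110.2. Besides Dad and dpp these were Doc1, Doc2, tup and vvl. The stronger Doc2 peak had a signal of 168.5 and relative signals of 1.01, 1.19 and 1.61, and the second Doc2 peak 110.5 with 0.760, 0.990 and 1.13. The Doc1 peak had 101.4 with 0.816, 0.753 and 0.825. At tup, a LIM-homeodomain gene of the amnioserosa and dorsal ectoderm, the signals were 150.0 and 109.9, with relative signals of 1.15, 0.935 and 1.20 for the first and 0.622, 1.34 and 0.784 for the second. At vvl, a POU-domain gene of the trachea and brain, the peak lay 26261 bp from the TSS, with a signal of 126.3 and relative signals of 0.911, 1.08 and 1.10. The relative means of these 6 peaks lay between 0.798 and 1.27, close to the median peak.

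These shares have to be read against the length of the gaps. The median over all protein-coding genes was 0 kb of eligible sequence nearest to the gene, while a Dpp target gene had a median of 4.91 kb and a segmentation gene 10.3 kb. Per Mb of eligible sequence nearest to the listed genes, the Dpp targets had 25.5 peaks (8 peaks, 11.0 to 50.2) and the segmentation genes 18.6 (6 peaks, 6.81 to 40.4), against 9.31 over all genes (8.35 to 10.4). The interval of the segmentation genes includes the value over all genes and that of the Dpp targets does not. Every other list with a peak whose density was computed was also above 9.31, with an interval that included it. The Wg list had 25.6 (3 peaks, 5.29 to 74.9) and the Sox and GATA list 17.1 (2 peaks, 2.07 to 61.7). The ecdysone and insulator lists had 0. A density above 9.31 was thus not particular to the Dpp targets, and the intervals were not widened for the number of lists. The lists were chosen with results of these data known, several overlap or neighbour one another in the genome (Doc1 with Doc2, slp1 with slp2), and the intervals count peaks as independent.

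Segmentation genes were nearest to a peak in 5 of 23 cases (21.7%), namely hry, odd, opa, slp1 and slp2, with 6 peaks and a median signal of 95.7. Among the fewer regions shared when replicate 1, 2 or 3 was left out, the count was 2, 3 and 1 of 23. Apart from the slp2 peak, with relative signals of 3.11, 2.55 and 3.38, all had signals of 82.8 to 100.6 and no full support. The peaks at odd had signals of 100.6 and 97.4, and those at slp1, hry and opa 94.1, 86.4 and 82.8. Among Hox genes 1 of 8 was nearest to a peak, Dfd (101.3), whose TSS was 26974 bp away.

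Signalling lists had 1 to 3 genes each, beside a share of 2.01% over all protein-coding genes. In the Wg list 3 of 24 were nearest to a peak (12.5%), lgs, the adaptor of nuclear Armadillo (254.2, relative signals 2.33, 2.19 and 1.40), Wnt4, a ligand gene next to wg (131.3), and fz4, a receptor gene (107.2). In the Hh list ptc, the Hedgehog receptor, was the only 1 of 10, with a signal of 239.7 and relative signals of 1.53, 2.23 and 1.80 at 5260 bp from its TSS. In the EGFR list 1 of 16, aop, which encodes an Ets repressor downstream of Ras, had a pair of peaks (223.9 and 104.4). The stronger aop peak had relative signals of 1.43, 1.40 and 2.38. In the Notch list 1 of 18, E(spl)m7-HLH, a repressor gene switched on by Notch, had a peak 503 bp from its TSS (142.6, relative signals 1.22, 1.12 and 1.16).

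Cell fate lists were similar. Sox21a (162.9) and SoxN (108.6) were found among 13 Sox and GATA factors (15.4%). The mesoderm and muscle list had 1 of 14 (7.14%), bin, a FoxF gene of the visceral mesoderm (138.0). The neural list had 1 of 22 (4.55%), ey, the Pax6 gene of the eye (89.4). The bin peak ranged widely, with relative signals of 0.788, 0.330 and 1.79. Ribosomal protein genes had 2 of 92 (2.17%, RpS15Aa 106.7 and RpS23 92.5) and chemoreceptor genes 3 of 179 (1.68%, led by Gr89a at 119.7 and Gr93d at 98.4), both near the background share. None of the 19 ecdysone and molting genes, the 14 insulator and architectural protein genes or the 19 heat shock genes had the TSS nearest to a distal intergenic peak. With a share of 2.01% over all protein-coding genes, 0 in lists this short does not set them apart. The insulator list also had just 0.0025 Mb of eligible sequence nearest to its genes.

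The DNA at these summits was AT-rich. Median GC content within 100 bp of the summit was 37.3% (quartiles 34.3 and 40.8), against 42.8% at the 3561 pooled regions of the same location that overlapped no optimal peak, 38.8% at promoter peaks, 36.3% at gene body peaks and 40.8% over all eligible sequence. Within 50 bp it was 36.6% against 43.6% at the pooled regions, and within 250 bp 41.2% against 42.9%, so the difference was narrow around the summit. For CTCF, CAGCTG, Mad and TATA, odds ratios are also given for peaks and background regions with a GC content between the quartiles of the distal intergenic peaks, a comparison added after the data were seen.

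The CTCF word AGNNGGCGC was found within 100 bp of 24 of the 342 summits (7.02%, Wilson 4.76 to 10.2), on either strand. It was found at 2.78% of the pooled background regions (odds ratio 2.64, Woolf 1.67 to 4.18) and at 2.80% of promoter peaks (2.62, 1.61 to 4.29), and at 3.90% of gene body peaks. Among each replicate's regions under the location rule, the strongest held it in 8.10%, 7.72% and 4.46% and the rest in 2.41%, 2.27% and 2.25%, so the strongest had the larger share in all 3. With intervals widened for the 32 motifs, the odds ratio was 1.26 to 5.55 against background and 1.19 to 5.79 against promoter peaks. Between the GC quartiles it was 3.34 (1.68 to 6.62). The word was centred: of 48 occurrences within 250 bp, 24 lay within 50 bp of the summit, against 68 of 226 at the background regions. The forms AGGTGGCGC and AGATGGCGC accounted for 9 and 7 of the 24 peaks.

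The CTCF peaks were of every strength. The word was found in 12 of the 171 stronger and 12 of the 171 weaker distal intergenic peaks, with a median signal of 118.6 with the word and 117.9 without it. The strongest were those at CycB (620.4), jp (376.0), CG14762 (282.0), noc (236.3) and soti (226.9). The noc peak had relative signals of 1.76, 1.81 and 1.98 and the soti peak 2.24, 1.56 and 1.38. The letters searched are short, and a match is no proof of a bound protein.

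Core promoter words of housekeeping genes were rare away from promoters. The DREF word TATCGATA was found at 3 distal intergenic peaks (0.877%) and 10.3% of promoter peaks (odds ratio 0.0770, 0.0245 to 0.242). The M1BP word GGTCACAC was found at 2 (0.585%) against 5.54%, and Motif 7, CATCNCTA, at 6 (1.75%) against 8.77%. Each of these words was about as frequent in the pooled background of the same location, at 0.646%, 0.477% and 1.35%. The E-box CAGCTG was found at 8 distal intergenic peaks (2.34%), 14.9% of promoter peaks (odds ratio 0.136, 0.0669 to 0.278) and 7.98% of the background (0.276, 0.136 to 0.563). Between the GC quartiles the last odds ratio was 0.105 (0.0144 to 0.766). Its share was lower in the strongest regions of every replicate than in the rest, at 4.98% against 8.82%, 4.94% against 7.92% and 4.18% against 7.98%.

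No word bound by factors of the BMP pathway was more frequent at these peaks with an interval that excluded 1. The Mad word GCCGNCG was found at 16 (4.68%), 8.12% of the background (odds ratio 0.556, 0.332 to 0.931) and 5.69% of promoter peaks. Between the GC quartiles the odds ratio turned to 1.12 (0.514 to 2.46). It was 0.923 within 250 bp and 0.660, 0.620 and 0.526 without replicates 1, 2 and 3, each with an interval that included 1, and 3 of 8 alternatives kept the call. The Brinker word TGGCGCC was found at 13 (3.80%), against 2.27% of the background (1.70, 0.935 to 3.08); its letters overlap the CTCF word. The Smad box GTCTAGAC and the Schnurri silencer element, to which Mad, Medea and Schnurri bind, were found at 0 of 342, which allows a share of up to 1.11% by the Wilson interval. Their background shares were 0.0562% and 0.253%.

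Other words differed in 1 comparison or failed under another. Su(Hw), searched as GCATACTTT, was found at 6 peaks (1.75%), against 0.530% of promoter peaks (3.35, 1.23 to 9.12) and 1.10% of the background (1.61, 0.678 to 3.84). The TATA box TATAAAA was more frequent than in the background (13.7% against 9.63%, 1.50, 1.08 to 2.07), but the odds ratio was 0.739 between the GC quartiles and 0.837 in the stronger 171 peaks. Sox, ACAATGG, was at 1.46% against 3.76% (0.379, 0.154 to 0.933), and under each of 8 alternatives the interval included 1. Of the 30 motifs with a match in both sets, the interval excluded 1 for 5 against background and 6 against promoter peaks. With intervals widened for 32 motifs it did so for 2 and 5: CTCF and CAGCTG in both, and DREF, M1BP and Motif 7 against promoter peaks.

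**Figure D4:**
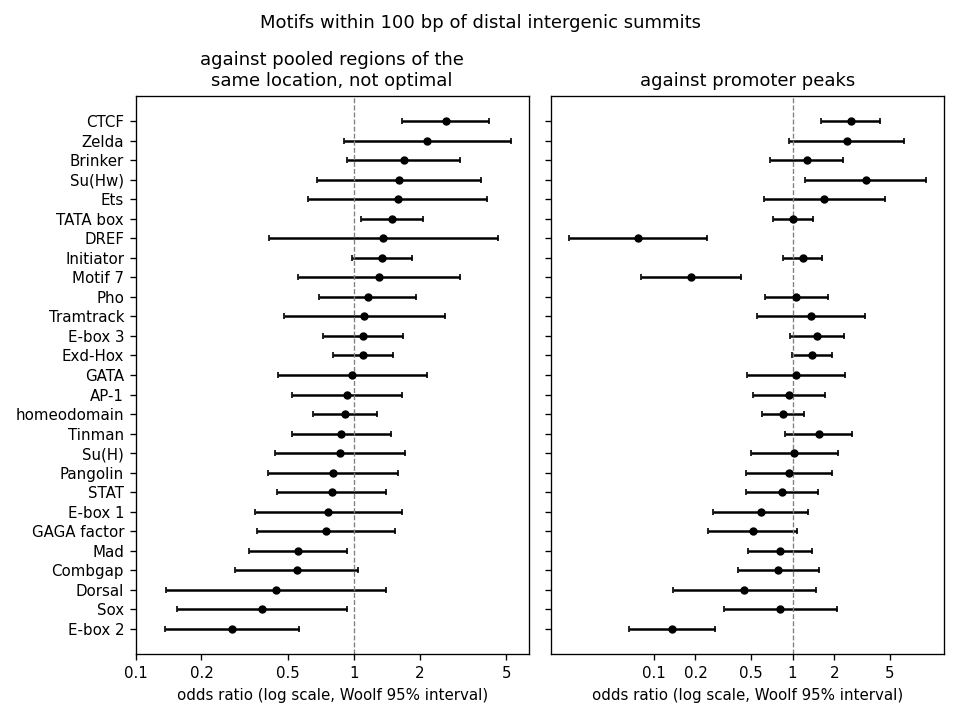
Odds ratio of finding each motif within 100 bp of a distal intergenic summit, against pooled regions of the same location outside the optimal list (left) and against promoter peaks (right), on a log axis with Woolf 95% intervals, for motifs at 3 or more distal intergenic peaks. CTCF lies to the right of 1 in both panels (2.64 and 2.62), E-box 2, the word CAGCTG, to the left in both, and DREF and Motif 7 to the left against promoter peaks; E-box 1 is CACGTG and E-box 3 CATATG.

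Among all 2080 words of 6 bases, AGTGTA had the highest odds ratio against the background of those in at least 15% of the peaks, and it was picked for that. It was found within 100 bp of 86 summits (25.1%), against 11.0% of the background, 11.8% of promoter peaks and 17.9% of gene body peaks, values given as a description with no test. Because it was picked from counts within 100 bp of the summit, an excess there over the flanks was selected for, and only its place inside those 100 bp was free. Of 169 occurrences within 250 bp at distal intergenic peaks, 66 lay 50 to 100 bp from the summit and 37 within 50 bp, whereas at the background regions 183 of 995 lay 50 to 100 bp away and 243 within 50 bp. Inside 100 bp, AGTGTA was more often in the outer 50 bp at distal intergenic peaks, and CTCF in the inner 50 bp. The word CTGAGAGAAA was picked as the one of 10 bases whose share exceeded its background share most, so that excess was selected for. It was found at 15 distal intergenic peaks (4.39%), 1.29% of the background, 0.434% of promoter peaks and 3.08% of gene body peaks, again as a description. No factor is assigned to either word here.

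**Figure D5:**
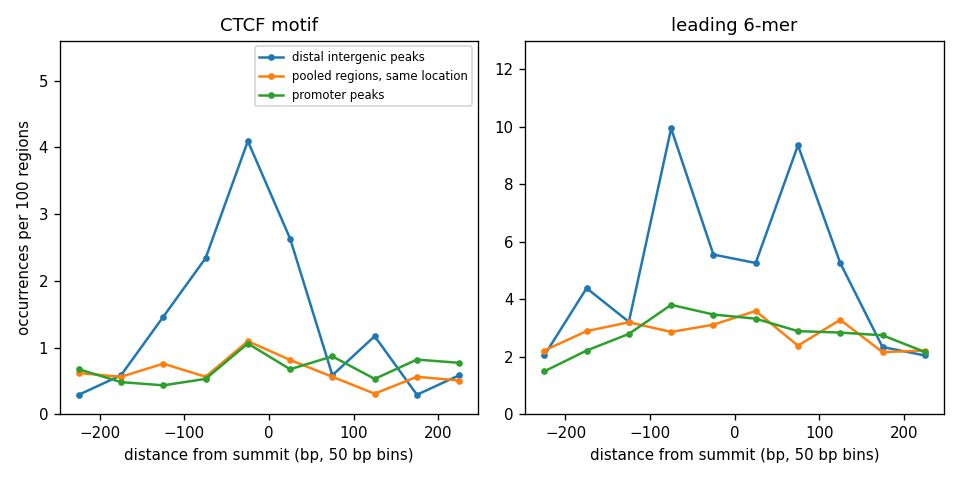
Occurrences per 100 regions of the CTCF word (left) and of the leading 6-base word (right) by distance from the summit in bins of 50 bp, at distal intergenic peaks, pooled background regions of the same location and promoter peaks. The CTCF word is highest in the bins beside the summit, and the 6-base word in the bins 50 to 100 bp to either side.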

How the data were processed

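Peak lists from 3 biological replicates of Dad-GFP embryos (1 group) were used on build dm6. The authors, per the file listings, took 30000 regions from each replicate and from the pooled alignments, called against a control, and kept an optimal list by irreproducible discovery rate. The sources used here do not give aligner, caller or threshold. The deposited signal is the caller's value per region, not scaled between lists. The deposited −log10 q reached a ceiling and was not used for ranking. Depth is unknown, so its precision could not be given.

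Summits were joined to Ensembl release 115 and the RefSeq sequence of the same assembly. For each optimal peak, the signal in a replicate was that of the strongest overlapping region of that replicate. It was divided by the replicate's median over the optimal peaks. Overlap was at least 1 bp. Shares carry Wilson, odds ratios Woolf, differences Newcombe and densities exact Poisson 95% intervals, and replicate differences an exact sign permutation test. Motifs were looked for on either strand, up to 100 bp from the summit. Scripts were tested on simulated data (Python 3.11.15, pandas 2.3.3, numpy 2.4.6, scipy 1.17.1).

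Members, gene lists, motifs and tests were chosen with earlier results of these data known. Named peaks are the 20 of highest signal, those nearest to BMP pathway and Dpp target genes, the 2 strongest of each other list and the 3 farthest from a TSS; the other segmentation peaks, the remaining CTCF peaks and the gap series were named after their values were seen. In 1 distal intergenic peak the summit lay past the region's end. A nearest TSS does not show which gene a peak acts on. Of the listed symbols, 16 matched no gene name, several being older names of genes listed under another. Alternatives were other distances, annotations, overlaps, windows and backgrounds, the stronger peaks, and leaving out each replicate.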

Additional observations from a re-analysis of the deposited data

How the results depend on the processing

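The yield of pooled regions against gene bodies (odds ratio 1.27 to 1.64 under other distances and overlaps, 1.28 to 1.30 without 1 replicate) and the CTCF odds ratio against background (1.86 to 3.34 under other windows, backgrounds and GC range, 2.08 to 3.30 without 1 replicate) kept their direction, with intervals excluding 1. The share of distal intergenic peaks (10.1%) was 13.3%, 7.84% and 5.51% with minimum distances of 250, 1000 and 2000 bp, 12.5% with protein-coding genes only, 9.43% among peaks at or above the median signal, and 8.93% to 9.56% without 1 replicate. Their density relative to all other peaks, 0.297, was 0.381, 0.251 and 0.207 at those distances, 0.355 with pseudogenes and transposable elements annotated, 0.334 with coding genes only, 0.275 among the stronger peaks, 0.319 outside transposable elements (an alternative added after the data were seen) and 0.259 to 0.280 without 1 replicate.

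The lower replicate support, -6.14 points against all other peaks, reversed to 0.235 points (-1.31 to 0.810) with all regions of each replicate, where nearly every peak is overlapped. It was -4.99 points (-10.3 to 0.569) with a reciprocal overlap of 50%, and -7.10 to -4.31 without 1 replicate; without replicate 1 the interval included 0. The signal difference of -0.0758 was -0.0414 on the optimal list's signal, -0.145 as a mean of log2 values and -0.0903 to -0.0597 without 1 replicate. The GC difference of -5.47 points was -6.93 within 50 bp, -1.70 within 250 bp and -4.73 to -3.98 without 1 replicate. The share with another peak within 5 kb (41.5%) was 22.2% within 2 kb, 56.7% within 10 kb and 33.5% to 35.4% without 1 replicate. Segmentation genes numbered 5 and, without 1 replicate, 1 to 3; Dpp targets numbered 6 and 4 to 5. Those sets hold 220, 215 and 204 distal intergenic regions by construction, fewer than 342.

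The Mad odds ratio reversed to 1.12 within the GC range and lost its call within 250 bp (0.923) and without each replicate (0.526 to 0.660). TATA reversed to 0.837 among the stronger peaks, 0.739 within the GC range, and 0.980 and 0.873 without replicates 2 and 3 (1.01 without replicate 1); the cause was not tested. Sox lost its call under each of the 8 alternatives run (0.337 to 0.778). No paired analysis was possible because the samples form 1 group. Depth is unknown, so what it limits could not be measured.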
